A study of Mus musculus with 4 samples.

Results

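Elastic fiber and microfibril genes were followed in cultured rib chondrocytes with and without Senp6, a SUMO-specific protease. The 10 genes were picked by name as *Eln*, *Fbn1*, *Fbn2*, *Fbln1*, *Fbln2*, *Fbln5*, *Efemp2*, *Ltbp1*, *Ltbp2* and *Mfap4*, out of the 18298 genes that had any read in the 4 samples. All 10 were found by their symbol in all 4 samples and passed the filter on low counts. The cells were primary chondrocytes, freed from the ribs of E18.5 embryos on a C57BL/6 background, grown to passage P1. Both groups carried the floxed *Senp6* allele on both chromosomes. The control samples (Senp6f/f, n = 2) had no Cre, and the mutant samples (Dermo1-Cre;Senp6f/f, n = 2) also carried Cre under *Dermo1* (*Twist2*), a gene of skeletal progenitors. Presence of Cre and loss of *Senp6* cannot be told apart in this design, and cells that escaped recombination may remain in a mutant culture. The labels do not say whether the samples of a group came from separate embryos, so that p-values measure only the spread between these samples. For the control samples that spread may be technical, while the mutant samples differed in sex and so did not come from 1 embryo.

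Elastic fibers are built from an elastin core that is laid down on a scaffold of microfibrils. Fibrillins polymerize into the microfibrils, fibulins help to load and cross-link elastin on them, and latent TGF-β binding proteins (LTBPs) anchor growth factor complexes there. In cartilage, microfibrils surround the chondrocytes and run through the perichondrium, and mutations of the human fibrillin-1 gene cause Marfan syndrome, in which long bones overgrow.

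The libraries held 2.1e+07 to 3.1e+07 reads counted on genes. *Senp6* itself was read at 10.8 and 18.0 RPKM (reads scaled by the length of the gene and by the depth of the library) in control replicates 1 and 2 and at 12.0 and 8.07 RPKM in mutant replicates 1 and 2. Its log2 fold change was -0.56 (SE 0.28, adjusted p = 0.410 by the quasi-likelihood test of edgeR, Benjamini-Hochberg over all genes). The floxed allele removes only some of the exons, so a count over the gene checks little of the deletion. The control samples lay further apart than the mutant samples, with a biological coefficient of variation of 0.208 against 0.121. *Xist* was read 2, 5 and 3 times in the control samples and mutant replicate 1 and 11354 times in mutant replicate 2, so that sex was mixed within the mutant group. None of the 10 genes lies on a sex chromosome, but their values may still differ with sex, which was not tested. The only sample with a female pattern was a mutant sample, so sex and genotype cannot be fully told apart.

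The cartilage collagen gene *Col2a1* was at 609 and 659 RPKM in the control samples and 334 and 445 RPKM in the mutant samples. *Col1a1*, the type I collagen gene of fibroblasts and bone, was higher than *Col2a1* in every sample, at 7253 and 4961 RPKM in the control samples and 4828 and 3311 RPKM in the mutant samples. The cultures therefore held cartilage transcripts together with abundant type I collagen transcripts, and which cells made the latter was not tested. In bulk samples, fewer cells of a type and less RNA per cell cannot be told apart.

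The promoters of 2 fibulin genes are shown here, because their transcripts lay on opposite sides of the control samples, *Fbln5* above and *Efemp2* below. Each sequence holds the 250 bases before 1 of the starts that RefSeq (GRCm38.p6) gives for the gene, written 5′ to 3′ along the gene. Capitals mark matches on either strand to the GC box GGGCGG, the CCAAT box CCAAT and the SMAD core CAGAC.
Fbln5, chr12:101819120-101819369, minus strand: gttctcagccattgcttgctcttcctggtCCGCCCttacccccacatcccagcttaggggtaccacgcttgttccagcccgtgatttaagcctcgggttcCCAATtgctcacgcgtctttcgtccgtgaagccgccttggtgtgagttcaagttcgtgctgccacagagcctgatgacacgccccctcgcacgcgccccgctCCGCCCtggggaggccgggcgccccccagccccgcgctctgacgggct
Efemp2, chr19:5473696-5473945, plus strand: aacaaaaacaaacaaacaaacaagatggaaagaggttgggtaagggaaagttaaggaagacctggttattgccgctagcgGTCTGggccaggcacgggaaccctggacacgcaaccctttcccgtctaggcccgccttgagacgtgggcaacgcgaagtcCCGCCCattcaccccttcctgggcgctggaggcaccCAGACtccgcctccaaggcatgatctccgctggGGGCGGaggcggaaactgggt
The *Fbln5* window held 2 GC boxes, 1 CCAAT box and no SMAD core, and the *Efemp2* window held 2 GC boxes, 2 SMAD cores and no CCAAT box. Neither held a TATA box (TATAAA) or an AP-1 site (TGANTCA). The other starts differed from these: the second window of *Fbln5* held 2 SMAD cores and no GC or CCAAT box, and the other 2 windows of *Efemp2* held 5 GC boxes each and no SMAD core. Over all their starts, GC boxes and SMAD cores thus stood in windows of both genes, while a CCAAT box stood only in the first *Fbln5* window. RefSeq windows were found for 7 of the 10 genes, 12 windows in all, with *Eln*, *Fbn2* and *Mfap4* without one. A GC box stood in 8 of the 12 windows and a SMAD core in 7, against 32.7% and 42.2% of all 32851 windows. A TATA box and an AP-1 site stood in 0 of the 12, against 12.4% and 6.75% of all windows. Several windows belong to 1 gene and overlap, and a match of letters is a description of the sequence alone.

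The levels of the 10 genes spanned 5.88 to 421 RPKM over all samples. In the control samples the order of the mean level was *Efemp2* (334 ± 58.1 RPKM, SD, n = 2), *Fbln2* (311 ± 14.1), *Fbn1* (170.2 ± 27.4), *Ltbp2* (113 ± 13.1), *Ltbp1* (53.4 ± 29.9), *Fbn2* (47.9 ± 13.3), *Fbln1* (40.2 ± 9.28), *Fbln5* (33.0 ± 1.97), *Mfap4* (19.5 ± 12.0) and *Eln* (13.2 ± 10.3). The neighbors *Efemp2* and *Fbln2* did not differ beyond their spread, nor did *Ltbp1*, *Fbn2*, *Fbln1* and *Fbln5* from one to the next, nor *Mfap4* and *Eln*. In the mutant samples *Fbln2* came first at 378 ± 60.7 RPKM, ahead of *Efemp2* at 262 ± 18.1 and of *Ltbp2* at 201 ± 45.7, and *Ltbp2* stood above *Fbn1* at 115.5 ± 31.7. In both genotypes every gene but *Mfap4* had a higher mean RPKM than *Eln*, which encodes elastin itself. The mean of *Mfap4* was above that of *Eln* in the control samples and below it in the mutant samples, at 9.36 against 10.9 RPKM.

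**Figure D1:**
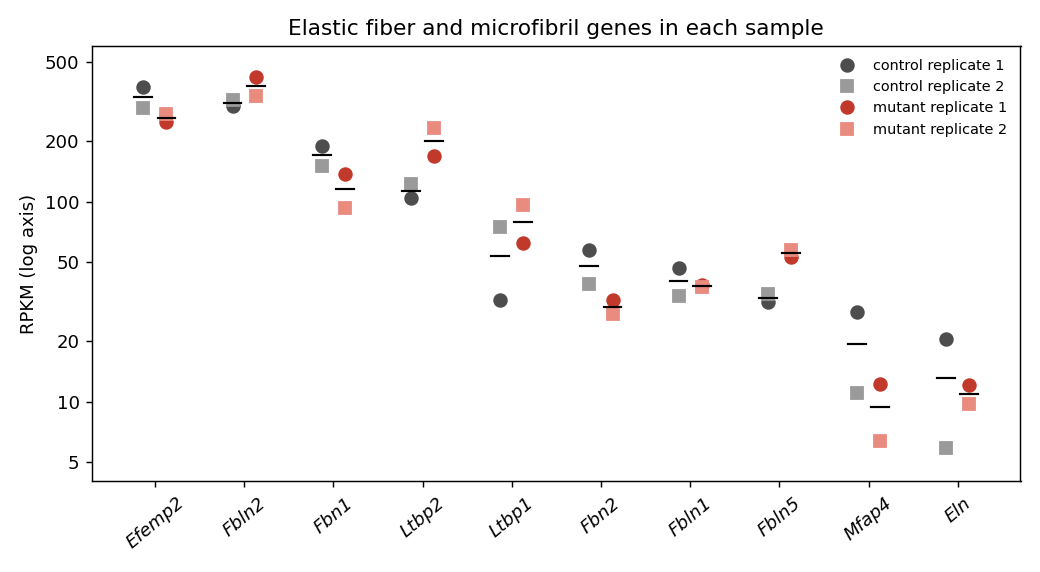
RPKM (log axis) of the 10 genes in each sample, ordered by the control mean, with control samples in gray, mutant samples in red, and black bars at the mean of each group (n = 2). The mutant samples lie above both control samples for *Fbln2*, *Fbln5* and *Ltbp2* and below both for *Fbn1*, *Fbn2* and *Efemp2*, while the control samples of *Eln*, *Mfap4* and *Ltbp1* stand far apart.

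The 10 genes did not move as a block between the genotypes. The mutant samples lay above both control samples for 3 genes and below both for 3, and the groups overlapped for the other 4. Among all 14123 genes tested, 28.3% lay above and 19.2% lay below, so genes on both sides were common in these data. In edgeR, 0 of the 10 genes had an adjusted p under 0.05, and 0 (0%) of all genes did. At an unadjusted p under 0.05 in edgeR, 2 of the 10 were higher (*Fbln5* and *Ltbp2*), beside 9.29% of all genes, and 2 were lower (*Fbn1* and *Fbn2*), beside 6.28% of all genes. DESeq2 called the same genes apart from *Fbn1*, with 2 higher against 3.07% of all genes and 1 lower against 1.86%. The median log2 fold change of the 10 was -0.23 against 0.0097 over all genes tested, and 4 of the 10 were positive. With 2 samples against 2, exact permutation of the labels gives no p under 0.333 for 1 gene.

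*Eln* encodes tropoelastin, the soluble precursor of the elastic core, and lies on chromosome 5 (134702593 to 134747323, minus strand, GRCm38). It was at 20.5 and 5.88 RPKM in control replicates 1 and 2 and at 12.1 and 9.73 RPKM in mutant replicates 1 and 2. Both mutant samples lay between the control samples, which differed from each other 3.49-fold. The log2 fold change was -0.33 (95% interval -1.62 to 0.97, edgeR adjusted p = 0.826). Its sign rested on which control sample was kept: it was 0.88 without control replicate 1 (edgeR adjusted p = 0.0193) and -1.01 without control replicate 2 (edgeR adjusted p = 0.00256). A change of *Eln* in either direction was therefore not detectable with these samples.

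The fibrillin genes, which code for the backbone of the microfibril, were both lower in both mutant samples than in either control sample. *Fbn1* (chromosome 2, 125300594 to 125507993, minus strand), whose product is the main fibrillin after birth, was at 189.6 and 151 RPKM in the control samples and 138 and 93.1 RPKM in the mutant samples. *Fbn2* (chromosome 18, 58008623 to 58210487, minus strand), the fibrillin of developing tissue, was at 57.3 and 38.5 RPKM in the control samples and 32.1 and 27.5 RPKM in the mutant samples. Control replicate 1 was the highest sample and mutant replicate 2 the lowest for both genes. The fold of mutant over control was 0.659 for *Fbn1* (95% interval 0.448 to 0.970, edgeR adjusted p = 0.281). For *Fbn2* the fold was 0.602 (95% interval 0.416 to 0.873, edgeR adjusted p = 0.194), and DESeq2 gave an adjusted p of 0.0300. Leaving out 1 sample moved the log2 fold change of *Fbn1* between -0.33 (without mutant replicate 2) and -0.93 (without mutant replicate 1), and that of *Fbn2* between -0.39 (without control replicate 1) and -1.04 (without control replicate 2). The ratio of *Fbn1* to *Fbn2* was 3.31 and 3.91 in the control samples and 4.29 and 3.38 in the mutant samples, so that the balance of the fibrillins overlapped between the genotypes. The exons of *Fbn1* share 2442 bases with a single exon of the antisense gene *Gm9913* in GENCODE, the largest such overlap. The library protocol as given does not mark strand, though the labels name both Ion Proton and Illumina for the libraries. Reads of the 2 genes therefore may not be separable there.

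The fibulins went in different directions. *Fbln5* (chromosome 12, 101746565 to 101819055, minus strand) encodes fibulin-5, which binds tropoelastin and integrins and is needed for elastic fiber assembly. It was at 31.6 and 34.4 RPKM in the control samples and 52.7 and 57.5 RPKM in the mutant samples. The samples of each genotype lay close together and the genotypes were well apart. The fold was 1.62 (95% interval 1.32 to 1.99, edgeR unadjusted p = 0.000937, adjusted p = 0.0885), and *Fbln5* rose by DESeq2 with an adjusted p of 0.000426. Leaving out any 1 sample kept its log2 fold change between 0.66 and 0.75.

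*Efemp2* (chromosome 19, 5473954 to 5482517, plus strand) encodes fibulin-4, which brings lysyl oxidase to tropoelastin. It was at 375 and 293 RPKM in the control samples and 249 and 275 RPKM in the mutant samples, so both mutant samples lay below both control samples, the nearest pair by a small margin. The fold was 0.760 (95% interval of the log2 fold change -0.80 to 0.0066, edgeR adjusted p = 0.331). Its log2 fold change moved to -0.18 when control replicate 1 was left out and to -0.62 when control replicate 2 was. *Fbln2* (chromosome 6, 91212455 to 91272540, plus strand), the fibulin-2 gene, was at 301 and 321 RPKM in the control samples and 421 and 336 RPKM in the mutant samples. The mutant samples lay above, but mutant replicate 2 was nearer to the control samples than to mutant replicate 1, and the log2 fold change was 0.24 (SE 0.16, edgeR adjusted p = 0.534), 0.054 without mutant replicate 1 and 0.42 without mutant replicate 2. *Fbln1* (chromosome 15, 85205949 to 85286535, plus strand), the fibulin-1 gene, was at 46.8 and 33.7 RPKM in the control samples and 38.5 and 37.2 RPKM in the mutant samples. Both mutant samples lay between the control samples, with a log2 fold change of -0.13 (SE 0.19, edgeR adjusted p = 0.795).

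The opposite order of the fibulin-4 and fibulin-5 genes showed in their ratio. *Efemp2* stood to *Fbln5* at 11.9 and 8.51 in the control samples and at 4.74 and 4.78 in the mutant samples, which agreed closely with each other. This ratio was chosen after the values were seen and carries no test. With 1 gene below and the other above both control samples, such a ratio had to separate the genotypes. The ratio of *Fbln5* to *Fbn2*, chosen in the same way, was 0.552 and 0.893 in the control samples and 1.64 and 2.09 in the mutant samples. RPKM of *Fbln5* rests on a gene length of 5893 bases in the files, while its coding transcripts in GENCODE are 5829 and 2371 bases long, and its reads covered only 47.7% of that length in control replicate 1 against 77.1% to 88.8% in the other samples. The listed length cancels in a fold between samples, but a difference in covered length or transcript between samples does not, and its part in the fold of *Fbln5* was not tested.

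Both LTBP genes had higher means in the mutant samples, *Ltbp2* with the groups apart and *Ltbp1* with a wide spread. *Ltbp2* (chromosome 12, 84783212 to 84876532, minus strand) encodes a microfibril protein that, unlike other LTBPs, does not bind latent TGF-β. It was at 104 and 122 RPKM in the control samples and 169 and 234 RPKM in the mutant samples, with no overlap. The fold was 1.73 (95% interval 1.29 to 2.32, edgeR unadjusted p = 0.0034, adjusted p = 0.117), and *Ltbp2* rose by DESeq2 with an adjusted p of 0.00249. *Ltbp1* (chromosome 17, 75005568 to 75392512, plus strand), whose product holds latent TGF-β in the matrix, was at 32.2 and 74.5 RPKM in the control samples and 62.1 and 96.5 RPKM in the mutant samples. Control replicate 2 was above mutant replicate 1, so the groups overlapped, and the log2 fold change of 0.54 had a 95% interval from -0.36 to 1.43 (edgeR adjusted p = 0.563). It was 0.065 without control replicate 1, 0.21 without mutant replicate 2, 0.81 without mutant replicate 1 and 1.195 without control replicate 2. The exons of *Ltbp2* share 764 bases with a single exon of the antisense gene *D030025P21Rik*, whose reads there may not be separable from those of *Ltbp2*. Shorter overlaps with single exons of genes of the other strand, 89 to 267 bases at the largest, exist for *Eln*, *Fbn2*, *Efemp2* and *Mfap4*.

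*Mfap4* (chromosome 11, 61485431 to 61488900, plus strand) encodes an accessory protein that binds elastin and fibrillin. It was at 28.0 and 11.1 RPKM in the control samples and 12.3 and 6.39 RPKM in the mutant samples. It had the fold furthest from 1 of the 10 genes, 0.465, but control replicate 2 lay below mutant replicate 1 and the 95% interval ran from 0.206 to 1.05 (edgeR adjusted p = 0.350). Its log2 fold change was -0.25 without control replicate 1, -0.69 without mutant replicate 2, -1.67 without control replicate 2 and -1.68 without mutant replicate 1. The control samples differed 2.53-fold from each other in *Mfap4* and 2.31-fold in *Ltbp1*, in opposite directions.

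**Figure D2:**
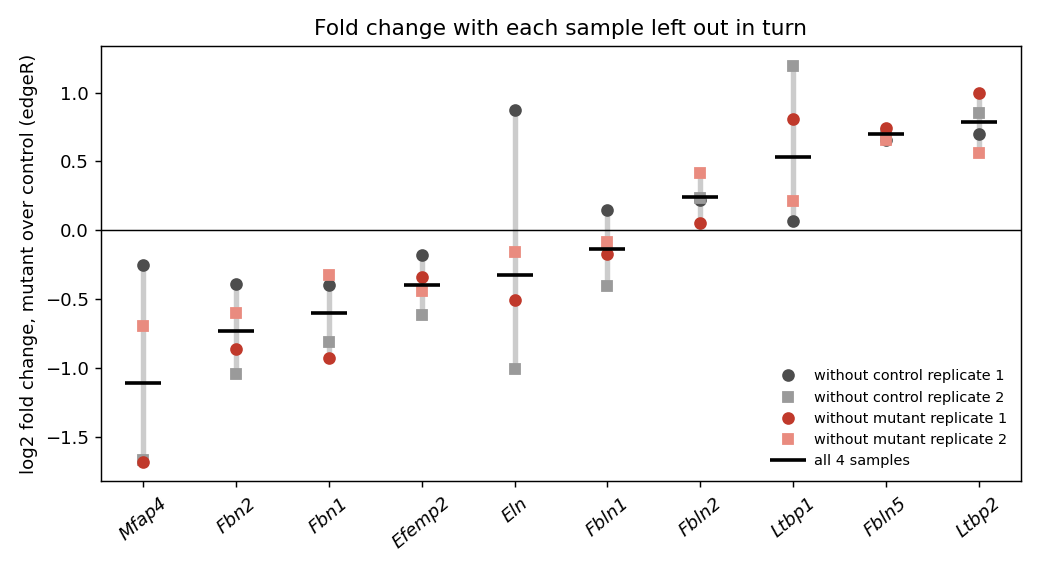
Log2 fold change of mutant over control (edgeR) for each of the 10 genes with all 4 samples (black bars) and with 1 sample left out (points), the gray lines giving the range. *Fbln5* barely moves, *Ltbp2*, *Fbn1*, *Fbn2*, *Efemp2* and *Mfap4* keep their sign, and *Eln* runs from -1.01 to 0.88.

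The choice of control sample also decided the counts. Without control replicate 1, *Fbln5* and *Eln* were called by edgeR (2 of 10, beside 4.55% of all genes), 5 genes lay above the remaining control sample and 3 below (39.4% and 36.6% of all genes), and the median log2 fold change of the 10 was 0.11. Without control replicate 2, 6 genes were called (*Eln*, *Fbn2*, *Fbln1*, *Fbln5*, *Efemp2* and *Ltbp2*), beside 19.6% of all genes, 6 lay below the remaining control sample and 4 above (33.1% and 51.5% of all genes), and the median was -0.51. Without mutant replicate 1 the genes called were *Fbn1* and *Ltbp2* (2.62% of all genes), and without mutant replicate 2 there were 0 (0.766% of all genes). In those fits a lone sample is assumed to vary like the samples of the other genotype.

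The summed level of the 10 genes overlapped between the genotypes, while the shares of fibrillins and LTBPs in it did not. The sum was 1186 and 1085 RPKM in the control samples and 1188 and 1172 RPKM in the mutant samples, which overlapped. As a share of all counted reads, with no scaling by length, the 10 genes took 0.591% and 0.562% in the control samples and 0.615% and 0.603% in the mutant samples, which did not overlap. The fibrillins made up 20.8% and 17.5% of that sum in the control samples and 14.3% and 10.3% in the mutant samples, with no overlap. The LTBPs made up 11.5% and 18.1% in the control samples and 19.5% and 28.2% in the mutant samples, again with no overlap though control replicate 2 and mutant replicate 1 were close. The fibulins held 63.6% and 62.9% against 64.2% and 60.2%, and overlapped. The ratio of *Fbn1* to *Ltbp2* was above 1 in the control samples, at 1.83 and 1.23, and below 1 in the mutant samples, at 0.815 and 0.398. These shares and ratios were formed after the values were seen, and they are descriptions with no test. The ratio of *Fbn1* to *Ltbp2* had to separate the genotypes, since each gene did so in the opposite direction.

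**Figure D3:**
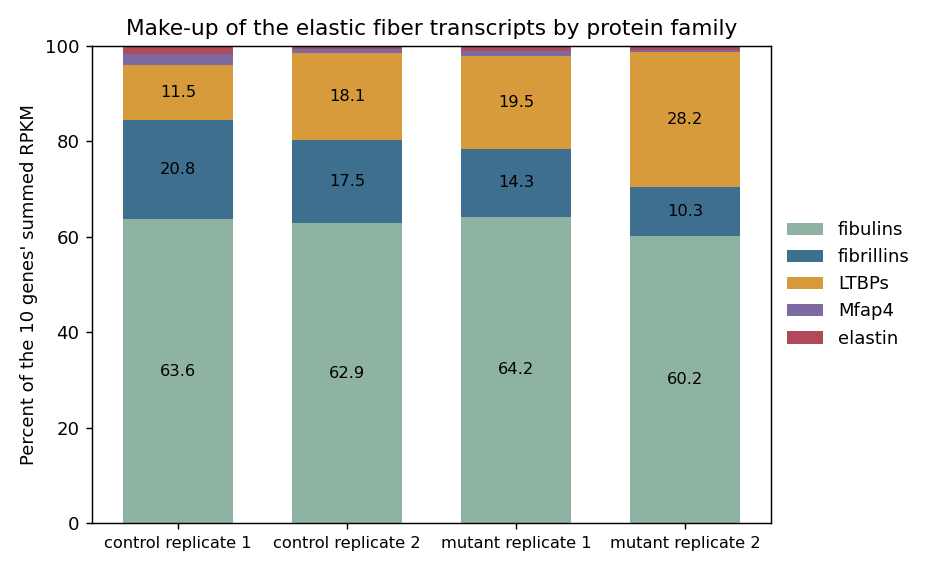
Share of each protein family in the summed RPKM of the 10 genes, in percent, for each sample. Fibrillins take 20.8% and 17.5% in the control samples and 14.3% and 10.3% in the mutant samples, LTBPs take 11.5% and 18.1% against 19.5% and 28.2%, and fibulins stay between 60.2% and 64.2%.

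A further list of 23 genes of elastic fiber and microfibril assembly was examined beside the 10, of which 21 passed the filter on low counts. Of these, 0 had an edgeR adjusted p under 0.05, while at an unadjusted p under 0.05, 4 were higher (9.29% of all genes) and 4 lower (6.28%). DESeq2 called 3 higher (*Thsd4*, *Adamtsl5* and *Loxl4*), beside 3.07% of all genes, and 2 lower (*Fbln7* and *Adamtsl3*), beside 1.86%. The mutant samples lay above both control samples for 5 of the 21 (28.3% of all genes) and below both for 6 (19.2% of all genes), and the median log2 fold change was -0.15. This list, too, held genes on both sides of the control samples, as did all genes tested.

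Of the 8 genes with an unadjusted p under 0.05, 5 belong to the ADAMTS and ADAMTSL families, as do 7 of the 21 tested. *Thsd4*, which encodes ADAMTSL6, a binding partner of fibrillin-1 that promotes microfibril formation, was at 3.60 and 3.80 RPKM in the control samples and 7.08 and 9.84 RPKM in the mutant samples (fold 2.22, 95% interval 1.66 to 2.97, edgeR adjusted p = 0.0833). *Adamtsl5*, of the same family, was at 8.30 and 7.28 RPKM in the control samples and 13.2 and 15.6 RPKM in the mutant samples (fold 1.79, edgeR adjusted p = 0.0960). Both were well above the controls in both mutant samples, while other members of the ADAMTS and ADAMTSL families had values on the other side. *Adamtsl3* was at 13.8 and 11.5 RPKM in the control samples and 8.08 and 8.46 RPKM in the mutant samples (fold 0.633, edgeR adjusted p = 0.122). *Adamtsl1* had a fold of 0.551 (edgeR adjusted p = 0.293) and *Adamts17* a fold of 0.296 at levels near or under 1 RPKM (edgeR adjusted p = 0.290), and control replicate 1 was the highest sample of both. *Adamts10* lay below both control samples in both mutant samples (log2 fold change -0.44, edgeR adjusted p = 0.350). *Adamtsl4* overlapped between the genotypes (log2 fold change 0.062, edgeR adjusted p = 0.877).

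*Fbln7*, a further fibulin gene, was at 10.7 and 8.13 RPKM in the control samples and 5.21 and 4.22 RPKM in the mutant samples (fold 0.486, 95% interval 0.341 to 0.693, edgeR adjusted p = 0.103). It lay on the side of *Efemp2* and opposite to *Fbln5*. *Ltbp4* was at 9.84 and 11.3 RPKM against 13.9 and 13.4 RPKM, with a log2 fold change of 0.32 (edgeR adjusted p = 0.302), and *Ltbp3* was at 81.5 and 67.4 RPKM against 71.8 and 72.6 RPKM, within the spread of the control samples.

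The cross-linking enzymes were the most abundant part of the list. *Lox*, the lysyl oxidase that cross-links elastin and collagen, was at 496 and 439 RPKM in the control samples and 466 and 386 RPKM in the mutant samples. *Loxl1*, which acts on elastin, was at 299 and 242 RPKM in the control samples and 263 and 239 RPKM in the mutant samples. *Loxl2* was at 92.5 and 94.3 RPKM in the control samples and 137 and 78.97 RPKM in the mutant samples. The genotypes overlapped for *Lox* and *Loxl2*, with edgeR adjusted p-values of 0.663 and 0.806, and for *Loxl1* with 0.712. Both mutant samples lay above both control samples for *Loxl3*, at 48.9 and 74.5 RPKM in the control samples and 85.8 and 84.1 RPKM in the mutant samples (log2 fold change 0.42, edgeR adjusted p = 0.363), which was named after its values were seen. They did so too for *Loxl4*, at 16.0 and 25.2 RPKM in the control samples and 30.4 and 38.7 RPKM in the mutant samples (fold 1.63, 95% interval 1.13 to 2.35, edgeR adjusted p = 0.202). Among structural genes, *Emilin1*, at 183 and 164 RPKM against 166 and 147 RPKM, and *Efemp1*, at 91.0 and 73.8 RPKM against 89.6 and 92.5 RPKM, overlapped between the genotypes. *Mfap2*, which encodes a glycoprotein of the microfibril, was at 214 and 110 RPKM in the control samples and 112 and 88.8 RPKM in the mutant samples (log2 fold change -0.74, edgeR adjusted p = 0.340), again with control replicate 1 as the high sample.

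**Figure D4:**
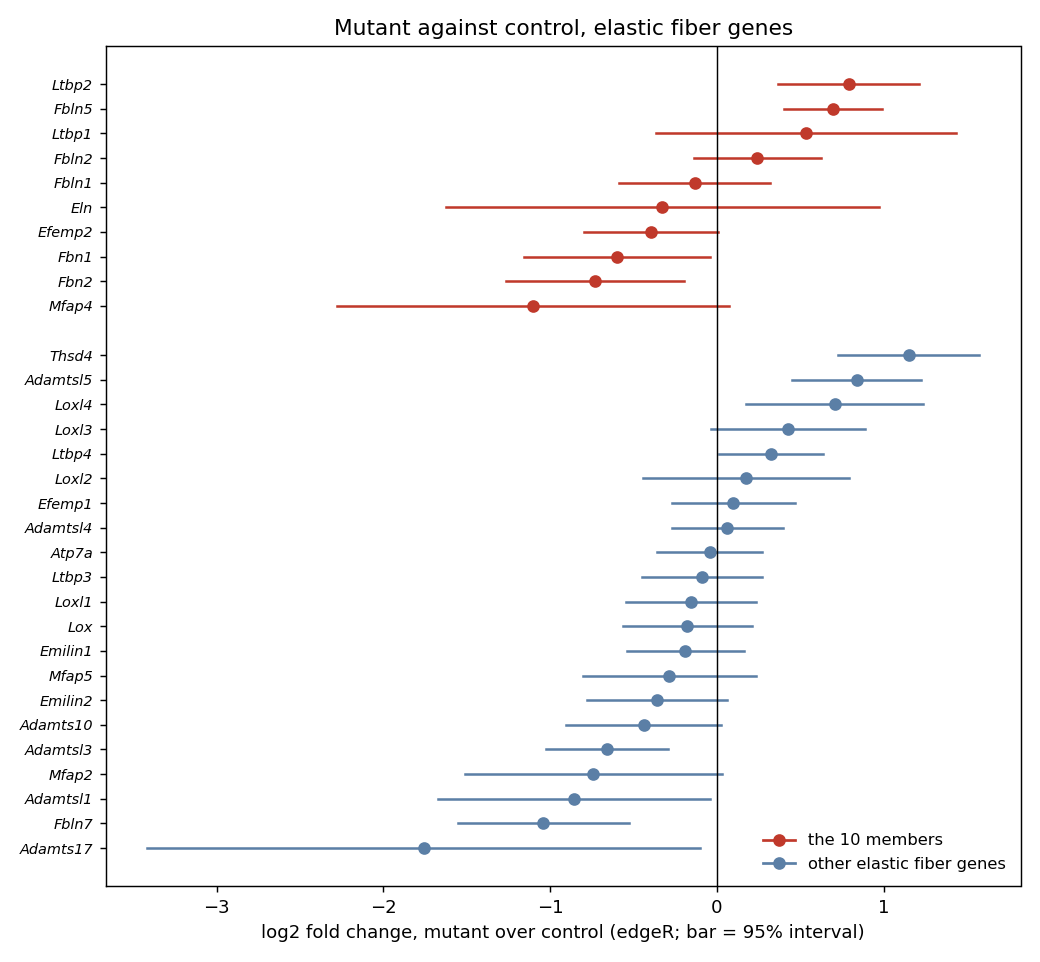
Log2 fold change of mutant over control (edgeR) with its 95% interval for the 10 genes (red) and the 21 tested genes of the further list (blue). In both lists some intervals lie wholly above 0 (*Ltbp2* and *Fbln5*, *Thsd4*, *Adamtsl5*, *Loxl4* and *Ltbp4*) and some wholly below (*Fbn1* and *Fbn2*, *Fbln7*, *Adamtsl1*, *Adamtsl3* and *Adamts17*).

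Markers of cell types differed between the genotypes as well. Of 15 chondrocyte markers, 13 were lower in both mutant samples than in both control samples, beside 19.2% of all genes. The 15 summed to 1052 and 1037 RPKM in the control samples and 520.2 and 655 RPKM in the mutant samples. Of 8 smooth muscle markers, 7 were higher in both mutant samples, beside 28.3% of all genes. The 8 summed to 1417 and 1615 RPKM against 2126 and 2003 RPKM. Contractile genes of this list, such as *Acta2*, are also read in activated fibroblasts. Of 9 skeletal muscle markers tested, 6 lay higher (28.3% of all genes), with sums of 85.3 and 23.1 RPKM against 128 and 148 RPKM. Of 6 osteoblast markers tested, 5 lay lower (19.2% of all genes) and 1 higher. All 8 osteoblast markers listed summed to 496 and 551 RPKM in the control samples. In the mutant samples they summed to 510 and 653 RPKM, so the sums overlapped. Of 8 fibroblast markers, 4 were lower in both mutant samples (*Col1a1*, *Col1a2*, *Col3a1* and *Dpt*), beside 19.2% of all genes. Only *Thy1* was higher in both, at 219 and 341 RPKM against 609 and 832 RPKM (28.3% of all genes), and the other 3 overlapped. The 8 together summed to 12412 and 8690 RPKM in the control samples and 8834 and 6444 RPKM in the mutant samples, which overlapped. The summed level of the 5 tendon markers overlapped too, at 409 and 238 RPKM against 234 and 251 RPKM. By gene, 2 of the 5 lay above both control samples (28.3% of all genes), 1 lay below both (19.2%) and 2 overlapped. Endothelial markers summed to at most 1.57 RPKM and erythroid markers to at most 0.419 RPKM in any sample, and macrophage markers to 18.9 and 17.6 RPKM against 9.88 and 14.8 RPKM. Of 5 macrophage markers tested, 3 lay lower (19.2% of all genes), 1 higher and 1 overlapped. *Fbn1*, *Fbn2* and *Efemp2* were lower, and *Fbln5*, *Fbln2* and *Ltbp2* were higher. The marker lists lay on both sides too, so a shared direction alone links none of the 10 genes to a cell type. The part of cell composition in the values of the 10 genes was not tested.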

How the data were processed

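RNA-seq of 4 samples was analysed, 2 of each genotype as the labels group them. The authors deposited for each gene the read count without normalization, its RPKM (the count per kilobase of the listed length and per sample total) and the percent of that length covered by reads. The submitters' processing notes name SAMtools and the build mm9. The aligner, the counting tool and the annotation are not given in the sources used here. A gene missing from a sample's list was given a count of 0. Coordinates come from GENCODE M21 and promoters from RefSeq, both on GRCm38, and none is from the authors' files.

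From the counts, the edgeR 4.0.16 quasi-likelihood test (R 4.3.3, TMM scaling, robust fit) covered 14123 genes with 10 counts or more in 2 or more samples, and Benjamini-Hochberg adjustment ran over all of them. The TMM factors lay between 0.966 and 1.03. Intervals are 95% intervals of that fit. The alternatives were DESeq2 1.42.0, upper quartile scaling, no filter, 10 counts in every sample, limma 3.58.1 on log2(RPKM + 1) and log2(RPKM + 0.1) for genes with an RPKM of 1 or more in 2 samples, a replicate block, and leaving out each sample. The TMM-scaled counts were added as an alternative to RPKM for the order of the samples after the data had been seen. The scripts were tested on simulated data. The replicates of a group were not copies of each other, with a chi-square of counts over its degrees of freedom of 48.6 between the control samples and 23.7 between the mutant samples.

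The 10 genes and all lists were chosen with earlier results of these data known. The text names all 10, and of the further list each gene with an unadjusted edgeR p under 0.05 and the 6 with the highest mean RPKM. From the lists of proteases and of growth factors and receptors it names each such gene and the 3 highest. *Ltbp3*, *Loxl3*, *Adamts10*, *Adamtsl4*, *Glb1* and the marker genes were named after their values were seen.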

Additional observations from a re-analysis of the deposited data

How the results depend on the processing

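The 10 genes gave 110 values under 11 alternatives. Of these, 95 kept their direction and their side of the threshold, 13 kept the direction and passed the threshold, 0 lost it and 2 changed sign. The sign changes were *Eln* (0.88, leave-one-out range -1.01 to 0.88) and *Fbln1* (0.15, range -0.40 to 0.15), both without control replicate 1. Under edgeR with all 4 samples 0 genes were called. DESeq2 called 434 genes higher and 263 lower, 3 of the 10 and 5 of the further list. Without the filter on low counts edgeR called 225 higher and 61 lower, 1 of the 10 (*Fbln5*, adjusted p = 0.0383) and 3 of the further list. Leaving out 1 sample gave 68 to 1296 genes higher and 37 to 1444 lower, 0 to 6 of the 10 and 0 to 11 of the further list, each highest without control replicate 2. The median log2 fold change of the 10 then ran from -0.51 to 0.11, the genes below both control samples from 3 to 6 and those above from 3 to 5. A replicate block in edgeR gave calls for 84 higher and 33 lower genes and 0 of the 10. The differences between replicates correlated at -0.0655 between the genotypes over all genes tested. That value gave no sign of pairing over the genes as a set. It cannot decide whether the replicate numbers pair the samples, since a pairing that touches only some genes would hardly move it. The other scalings and pseudocounts changed no call among the 10. With 2 samples a group, the precision is set by the spread between samples rather than by depth for *Eln*, *Mfap4* and *Ltbp1*, each with at least 273 reads in every sample, and the cause of the distance between the control samples was not tested.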

Other observations

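Proteases that cut elastin were read beside the fiber genes, and the most abundant of them, *Mmp14* and *Mmp2*, overlapped between the genotypes. Of 12 such genes 9 were tested, of which 0 passed an edgeR adjusted p under 0.05 and 1, lower in the mutant samples, had an unadjusted p under 0.05 (6.28% of all genes). That gene was *Ctsk*, which encodes cathepsin K, a cysteine protease that degrades collagen and elastin. It was at 77.3 and 61.0 RPKM in the control samples and 38.3 and 34.8 RPKM in the mutant samples, a fold of 0.513 (95% interval 0.386 to 0.682, edgeR adjusted p = 0.0885), and it fell by DESeq2 with an adjusted p of 0.000175. *Mmp14*, a membrane-bound metalloprotease, was at 432 and 378 RPKM in the control samples and 434 and 377 RPKM in the mutant samples. *Mmp2*, a gelatinase, was at 306 and 253 RPKM against 236 and 258 RPKM, and *Ctsl* at 68.9 and 82.2 RPKM against 85.7 and 98.4 RPKM, with edgeR adjusted p-values of 0.552 and 0.465.

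Microfibrils hold TGF-β and BMP ligands, and integrins release them or bind the fibers. Of 17 genes tested, such ligands and integrin chains and also *Glb1*, which is neither, 0 passed an edgeR adjusted p under 0.05. At an unadjusted p under 0.05, 6 were higher and 2 lower, beside 9.29% and 6.28% of all genes, and DESeq2 called 1 higher (3.07% of all genes) and 2 lower (1.86%). The mutant samples lay above both control samples for 10 of the 17 (28.3% of all genes), and the summed level was 575 and 605 RPKM in the control samples and 729.7 and 693 RPKM in the mutant samples, with no overlap. The integrin genes carried most of that sum. *Itgb1*, the common beta chain of matrix receptors, was at 160 and 186 RPKM in the control samples and 221 and 229.7 RPKM in the mutant samples (log2 fold change 0.34, SE 0.13, edgeR adjusted p = 0.271). *Itgav*, a chain of integrins that release TGF-β, was at 22.3 and 27.9 RPKM against 34.5 and 33.2 RPKM (edgeR adjusted p = 0.248). *Itga5* and *Itgb5* lay above in both mutant samples with log2 fold changes of 0.34 and 0.17 and edgeR adjusted p-values of 0.416 and 0.603. *Itga8* was at 1.17 and 0.715 RPKM against 1.72 and 2.90 RPKM and rose by DESeq2 (adjusted p = 0.0271). *Itgb8* was at 1.23 and 1.24 RPKM against 1.80 and 2.21 RPKM, and *Itgb6* was under 0.2 RPKM in every sample.

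The ligands were split. *Tgfb3* was at 77.6 and 85.1 RPKM in the control samples and 115 and 102 RPKM in the mutant samples (log2 fold change 0.37, SE 0.13, edgeR adjusted p = 0.251). *Bmp4* was at 20.9 and 12.4 RPKM against 7.52 and 9.80 RPKM (fold 0.503, 95% interval 0.315 to 0.802, edgeR adjusted p = 0.172) and fell by DESeq2 with an adjusted p of 0.0206. *Bmp7* was at 2.54 and 2.57 RPKM against 1.49 and 1.36 RPKM and fell by DESeq2 with an adjusted p of 0.0489.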
